A study of Mus musculus with 20 samples.

Results

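The nuclear genes of the mitochondrial respiratory chain were examined in the aging corneal epithelium. All gene symbols for the subunits of NADH dehydrogenase (complex I, Nduf), succinate dehydrogenase (complex II, Sdh), the cytochrome bc1 complex (complex III, Uqcr), cytochrome c oxidase (complex IV, Cox4 to Cox8) and ATP synthase (complex V, Atp5) were taken by name, without pseudogenes. This gave 83 of the 24552 genes of the table: 35 of complex I, 4 of complex II, 8 of complex III, 20 of complex IV and 16 of complex V. Ndufa4 and Ndufa4l2 were counted with complex IV, and Atp5s (coupling factor B, not a subunit of the enzyme itself) was counted with complex V by its symbol. The libraries came from naïve wild-type female C57BL/6J mice at 2 to 3, 12 to 13, 18 to 19 and 24 to 25 months of age, with 5 mice at each age and no transgene or treatment in any group. The epithelium of both corneas of 1 animal was scraped into each library, and RNA was sequenced from the 3′ end.

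The respiratory chain passes electrons from NADH and succinate to oxygen and pumps protons across the inner mitochondrial membrane, and ATP synthase uses the returning protons to make ATP. Most subunits are encoded in the nucleus and imported, whereas a small catalytic core is encoded in the mitochondrion, so the subunits of a complex have to be made in proportion. Several subunits of complex IV have an isoform for heart and skeletal muscle, lung or testis beside the one used in most tissues. The corneal epithelium is a stratified epithelium without vessels that relies on glycolysis as well as on respiration.

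The promoters of these genes are known for binding sites of NRF1 (nuclear respiratory factor 1), GABP (an ETS factor) and YY1. Promoters of 68 of the 83 genes were found in the RefSeq set for GRCm38.p6 (73 stretches from 250 bases before to 50 bases after a start site). CGCATGCG, the core of NRF1 sites, occurred in 12.3% of these stretches and in 1.87% of all 32851 promoters, on either strand. CCGGAAG, the core of GABP sites, occurred in 21.9% against 8.86%, and AAGATGGC, the core of YY1 sites, in 13.7% against 2.75%. In all, 29 of the 68 genes held at least 1 of the 3, and none of these matches overlapped another. Of the 9 genes with NRF1 letters, 5 are shown because they span 4 of the 5 complexes, with the letters in capitals. Each is read 5′ to 3′ on the strand of the gene.

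Ndufa11, complex I, chr17:56717692-56717721, plus strand: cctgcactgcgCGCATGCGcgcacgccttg
Uqcrc1, complex III, chr9:108936668-108936697, plus strand: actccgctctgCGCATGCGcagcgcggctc
Cox6a1, complex IV, chr5:115349101-115349130, minus strand: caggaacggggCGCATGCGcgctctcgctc
Atp5k, complex V, chr5:108434430-108434459, minus strand: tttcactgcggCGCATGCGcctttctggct
Atp5g2, complex V, chr15:102671070-102671099, minus strand: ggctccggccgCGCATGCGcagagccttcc

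Of the 10 genes with YY1 letters, 7 were in complex I and 3 in complex V. In these 7 complex I genes the letters lay between 22 and 45 bases after the start site, as in the stretches of Ndufs7, Ndufa9 and Ndufc1 that follow (letters in capitals).

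Ndufs7, chr10:80249462-80249491, plus strand: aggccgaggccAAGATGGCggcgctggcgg
Ndufa9, chr6:126849097-126849126, minus strand: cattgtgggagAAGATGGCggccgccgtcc
Ndufc1, chr3:51408915-51408944, minus strand: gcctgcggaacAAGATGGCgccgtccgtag

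A match is a string of letters and not a measured binding site, and no binding was measured in this series.

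Between 6699383 and 10762360 reads per library lay on genes. The members took between 0.641% and 0.959% of these reads, with a mean of 0.81% ± 0.116 (SD, n = 5) at 2 months, 0.837% ± 0.0567 at 12 months, 0.826% ± 0.0216 at 18 months and 0.849% ± 0.0727 at 24 months. Markers of corneal epithelium were abundant in every library (6 genes, summed normalized counts from 380146 to 489871), while the 9 skeletal muscle genes summed to at most 40.5. Markers of other cells varied over the libraries, and some were lower at the older ages. The 5 stromal keratocyte markers summed to between 1637 and 4374 at 2 months and between 318 and 1018 at 24 months. At 12 months they summed to between 662 and 1500 and at 18 months to between 642 and 1316. In the test described below, Col1a1, Col1a2 and Dcn were called lower at 24 against 2 months. Their log2 fold changes were -3.74, -3.09 and -1.94 (limma adjusted p = 1.12e-08, 9.64e-07 and 0.00025). Col1a1 and Col1a2 were also called lower at 12 and 18 months. The 5 conjunctival markers summed to between 28438 and 49788 at 2 months and between 24795 and 29921 at 24 months. At 12 months they summed to between 24402 and 40008 and at 18 months to between 27548 and 37296. Krt4 was called lower at 24 against 2 months (-1.54, limma adjusted p = 2.17e-06) and also at 12 and 18 months. Krt19 was called lower at 12 and 18 months (-0.78 and -0.77, limma adjusted p = 0.0391 and 0.0379). The 5 immune markers summed to between 99.6 and 197 at 2 months, 49.7 and 96.5 at 12 months, 63.6 and 154 at 18 months and 37.6 and 126 at 24 months. The 3 melanocyte markers summed to between 25.8 and 100 at 2, 18 and 24 months and to between 56.1 and 1000.7 at 12 months, with a median of 77.2 there. The part of these cells in the values below was not tested. In scraped tissue, fewer cells of a type and less RNA per cell cannot be told apart.

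Most members were readily measured. Reads were found for 79 of the 83, and 74 passed the filter of a mean normalized count of 10, of which 69 had a mean of at least 100. Levels below are normalized counts, that is reads divided by the size factor of the library; with 3′ sequencing a transcript gives about one read whatever its length, so the values were not divided by length. In complex I the highest counts were those of Ndufa12 (mean of 20 libraries 1309), an accessory subunit, and Ndufb9 (1118). In complex II they were those of Sdha (1059), the flavoprotein that oxidizes succinate, and Sdhb (880), the iron-sulfur subunit. Uqcrh (1942), the hinge protein, and Uqcr10 (1339) led complex III, and Cox6c (2109) and Cox8a (2076) led complex IV. Atp5g3 (6125), a gene for the ring subunit c of ATP synthase, and Atp5a1 (2276), its alpha subunit, led complex V.

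**Figure D1:**
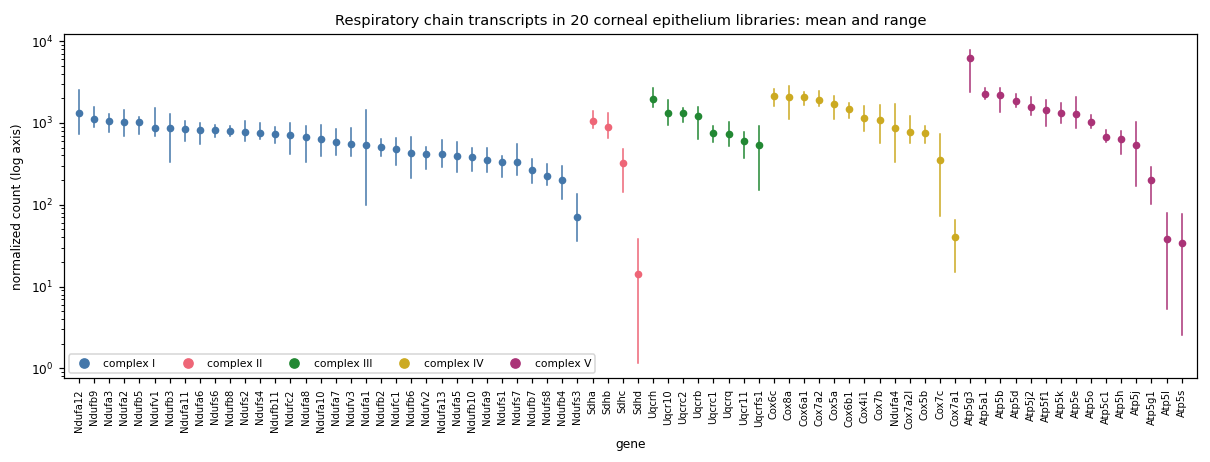
Mean level (point) and range (line) of the 74 tested genes over 20 libraries, as normalized counts on a log axis, ordered by level within each complex. The means of 69 genes are 100 or more, Atp5g3 stands above the others at 6125, and Sdhd, Atp5s, Atp5l and Cox7a1 lie below 50.

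The 9 members that did not pass the filter were mostly isoforms of other tissues. Cox4i2 (the lung form of subunit 4), Cox7b2 and Cox8c (testis forms) had 0 reads in all 20 libraries; a count of 0 allows up to 3 reads per library, for counting error only. Cox6a2 and Cox8b, the heart and muscle forms, had reads in 1 library each, 6 reads in a 24-month library and 9 reads in a 12-month library. Ndufa4l2, a hypoxia-induced relative of Ndufa4, had between 1 and 2 reads in 3 of the 5 libraries of 2 months and none in the 15 others. Cox6b2, a testis form, reached at most 32.1 normalized counts. Thus the forms counted in this epithelium were Cox4i1 (1145), Cox6a1 (2073), Cox6b1 (1477), Cox7a2 (1917) and Cox8a, with Cox7a1, the muscle form of subunit 7a, at 39.9.

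The other 2 genes below the filter are not tissue forms. Ndufs5, an accessory subunit of complex I, had 0 reads in all 20 libraries, and Atp5g2, another gene for subunit c, had a mean of 9.02. Reads of such genes may be shared with copies elsewhere: of the 226 windows of 75 bases in the last 300 bases of the transcript, 49.6% for Ndufs5 and 98.2% for Atp5g2 also occurred in transcripts of annotated pseudogenes (GENCODE M21). The same share was 99.1% for Cox7c, 59.7% for Atp5l, 47.8% for Ndufs3, 34.1% for Uqcrb, 31.4% for Cox6c and 25.2% for Atp5h, and 17 of the 83 members shared at least 1 window. The levels of these genes are therefore uncertain. At 8 members an exon of a gene on the opposite strand lay over these last 300 bases, and the use of strand in the counting is not given in the sources used here.

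The question of the series was how the epithelial transcriptome differs with age. No member passed the test at any age. With limma on the log2 values, at a Benjamini-Hochberg adjusted p of at most 0.05 and 1.2-fold, 0 of 74 members were called at 12 months against 2 months, where 0.532% of all 11288 tested genes were called. The count was 0 of 74 at 18 months (0.673% of all genes) and 0 of 74 at 24 months (0.78%). It was also 0 for 24 against 12 months (0.195%), 18 against 12 months (0.00886%), 24 against 18 months (0%), all 15 aged libraries against the 5 young (1.01%) and the trend over age (0.718%). At these shares, less than 1 call among 74 genes would be in proportion. The fit with voom on recovered reads also called 0 members in the 8 comparisons. At an unadjusted p below 0.05 there were 9 members at 12 months (9.56% of all genes), 4 at 18 months (7.18%), 2 at 24 months (9.97%), 9 for 24 against 12 months (14.7%), 6 for 18 against 12 months (7.43%), 1 for 24 against 18 months (5.31%), 4 for aged against young (7.89%) and 3 for the trend (9.98%).

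The intervals show how large a change these libraries leave room for. At 24 months against 2 months the 95% interval of 55 of 74 members lay wholly within 1.5-fold up or down, and that of 65 within 2-fold; over all tested genes these shares were 35.9% and 68%. The log2 fold changes of the members ran from -0.53 (Ndufs3) to 0.70 (Ndufa1), with a median of -0.0052 against 0.0052 over all tested genes, and 36 of 74 were positive. Only Ndufa1 was past 1.5-fold in its estimate, 1 of 74, while 12.8% of all tested genes were. At a like level the members were near the other genes in this count. Among genes between 236 and 1897 normalized counts, 1 of 58 members (1.72%) and 2.72% of 3971 other genes were past 1.5-fold. The median SE there was 0.16 in both (0.155 and 0.162). Shares of intervals within 1.5-fold or 2-fold were not compared at a like level. At 12 months the intervals of 49 members, and at 18 months of 54, lay within 1.5-fold.

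**Figure D2:**
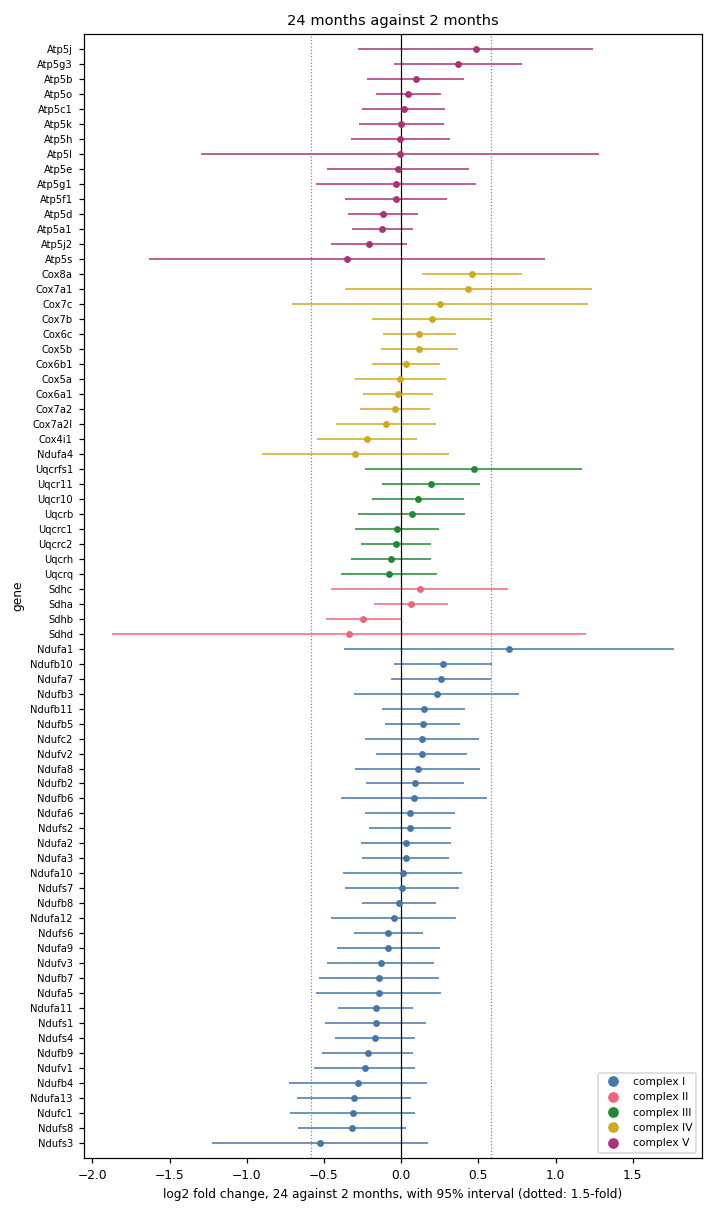
Log2 fold change of the 74 tested genes at 24 months against 2 months (point) with its 95% interval (bar), by complex; dotted lines mark 1.5-fold. The intervals of 55 genes lie between the dotted lines, and those of Cox8a and Sdhb alone leave out 0.

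By complex, the median log2 fold change at 24 against 2 months was -0.0051 in complex I (34 genes, 26 of them with an interval within 1.5-fold), -0.092 in complex II (4 genes, 2 within), 0.021 in complex III (8 genes, 7 within), 0.031 in complex IV (13 genes, 9 within) and -0.0083 in complex V (15 genes, 11 within). At 12 months the complex I median was 0.078, with 23 of 34 genes positive, and for 24 against 12 months it was -0.15, with 8 of 34 positive; these comparisons share the 12-month libraries. The medians were further apart in other comparisons, from -0.15 (complex II) to 0.11 (complex III) at 18 against 2 months, from -0.27 (II) to 0.0087 (V) for 24 against 12 months and from -0.22 (II) to 0.066 (III) for 18 against 12 months. The mean of the complex I genes, as log2 deviations from their own means, was -0.018 ± 0.13 (SD, n = 5) at 2 months, 0.053 ± 0.088 at 12 months, 0.0082 ± 0.080 at 18 months and -0.043 ± 0.12 at 24 months. For complex II they were 0.039 ± 0.38, 0.085 ± 0.27, -0.064 ± 0.43 and -0.061 ± 0.28, and for complex III -0.075 ± 0.19, -0.0044 ± 0.099, 0.075 ± 0.066 and 0.0045 ± 0.13. For complex IV the means were -0.044 ± 0.22, -0.023 ± 0.13, 0.041 ± 0.047 and 0.027 ± 0.20, and for complex V 0.020 ± 0.28, -0.051 ± 0.22, 0.0028 ± 0.11 and 0.028 ± 0.19. Differences between these means were not tested. The 18-month libraries had the smallest spread over all members (SD 0.048) and the 2-month libraries the widest (SD 0.19).

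No member had all 5 libraries of an older age above or below the 5 young ones, whether at 12, 18 or 24 months. Of all tested genes, 1.98%, 2.05% and 2.81% did so. At these shares only a few members would be in proportion, so their absence does not set the members apart.

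Cox8a (chr19:7215158-7217616, GRCm38), a small membrane subunit of complex IV, had the lowest p of the members at 24 months. Its normalized counts at 2 months were 1105, 1452, 2816, 1668 and 1557. At 12 months they were 2355, 2329, 2229, 1736 and 1713. At 18 months they were 2208, 2006, 2278, 2280 and 2533, and at 24 months 2432, 2164, 2146, 2119 and 2389. Thus 4 of the 5 young libraries lay below all 15 aged libraries, and the remaining young library, replicate 3, lay above all of them. The log2 fold change was 0.33 ± 0.16 (SE) at 12 months, 0.46 ± 0.16 at 18 months and 0.46 ± 0.16 at 24 months, with limma adjusted p of 0.516, 0.344 and 0.239. For all aged libraries against the young it was 0.42 ± 0.13 (adjusted p = 0.155). Without 2-month replicate 3 the difference passed the test at 18 months (0.66, adjusted p = 0.00698), at 24 months (0.65, adjusted p = 0.00648) and for aged against young (0.61, adjusted p = 0.00183). Without 2-month replicate 1, the lowest young library, the estimate fell to 0.32 at 24 months (adjusted p = 0.567) and to 0.27 for aged against young (adjusted p = 0.544). Replicate 3 also had the highest member mean of its age (0.22, as a log2 deviation). The promoter of Cox8a held the letters of the GABP core on the opposite strand at 2 places, the stretch nearest to the start site being chr19:7217603-7217632, minus strand, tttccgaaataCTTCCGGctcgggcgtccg, with the letters in capitals.

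Sdhb (chr4:140961271-140979198), the iron-sulfur subunit that hands electrons on within complex II, was lower at 18 and 24 months in its mean, without a call. Its normalized counts were 951.5, 936.8, 850.2, 984.4 and 928.7 at 2 months and 829.1, 999.7, 981.4, 1026 and 1310 at 12 months. They were 861, 727.2, 790, 837.6 and 653.7 at 18 months and 807.4, 884.7, 755.8, 764 and 714.4 at 24 months. Only 1 library at 18 months (861) and 1 at 24 months (884.7) reached the lowest young library. The log2 fold change at 24 months was -0.25 ± 0.12 (SE, adjusted p = 0.494) against 2 months and -0.38 ± 0.12 (adjusted p = 0.146) against 12 months. The other subunits of complex II had log2 fold changes of 0.062 (Sdha), 0.12 (Sdhc) and -0.34 (Sdhd) at 24 months; Sdhd, with 1.17 to 38.6 normalized counts, had an SE of 0.75.

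At 12 months the largest estimates with an unadjusted p below 0.05 belonged to Ndufa12 and Ndufa4. Ndufa12 (chr10:94199035-94221440), an accessory subunit of the peripheral arm of complex I, had a mean of 1216 ± 455 (SD, n = 5) at 2 months and 1719 ± 545 at 12 months, then 1173 ± 142 and 1128 ± 172. Its 12-month values were 1175, 1834, 1283, 1756 and 2549, against 1965, 724.7, 1153, 1088 and 1151 at 2 months, so that the groups overlapped. The log2 fold change was 0.52 ± 0.20 (SE, adjusted p = 0.353). Ndufa4 (chr6:11900372-11907450), a subunit of complex IV, had 336.5, 1685, 1265, 1337 and 905 normalized counts at 2 months and 909.1, 556.4, 724.3, 681.4 and 372.1 at 12 months. Its log2 fold change was -0.64 ± 0.29 (SE, adjusted p = 0.48). In both genes 2-month replicate 1 stood on the far side of its group, high for Ndufa12 and low for Ndufa4. Without that library both passed the test at 12 months (0.71, adjusted p = 0.0495, and -1.03, adjusted p = 0.0155). Without 2-month replicate 2, which stood on the opposite side, the estimates were 0.35 (adjusted p = 0.709) and -0.45 (adjusted p = 0.797). In complex V the lowest estimate at 12 months was -1.06, for Atp5s, with 2.55 to 77.6 normalized counts over the series.

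**Figure D3:**
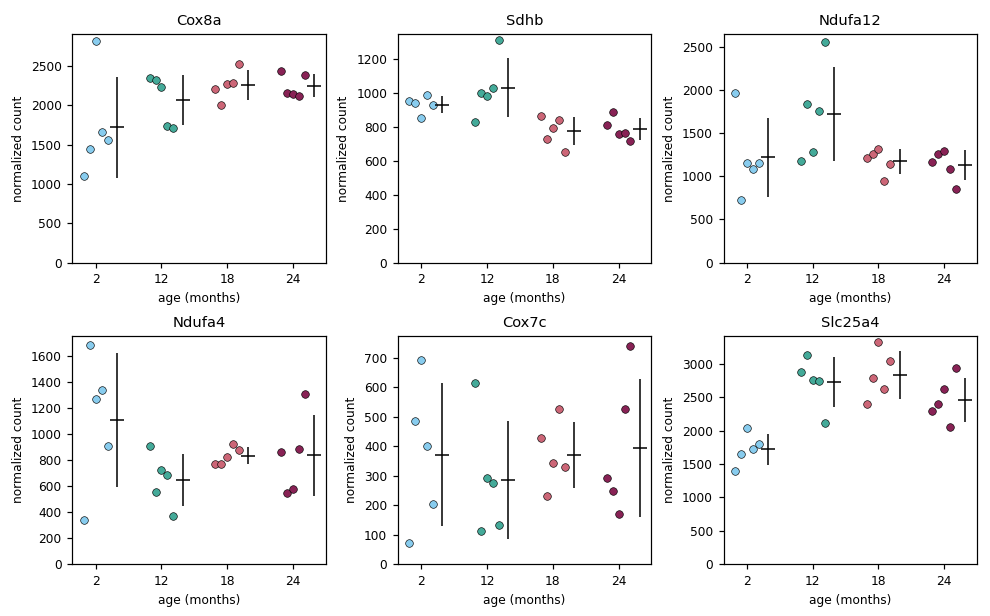
Normalized counts of Cox8a, Sdhb, Ndufa12, Ndufa4, Cox7c and Slc25a4 in each library (points) by age in months, with the mean and SD of 5 libraries beside them. The young and older points overlap in the 5 members, and the older points of Slc25a4 all lie above the young.

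The remaining members with the largest differences between 2 and 24 months were spread over the complexes, and none was called. In complex I Ndufb10 had a log2 fold change of 0.27 ± 0.16 (SE), Ndufs8, an iron-sulfur subunit, -0.32 ± 0.17, and Ndufs3, a core subunit, -0.53 ± 0.34. In complex III Uqcrfs1, the Rieske iron-sulfur protein, had 0.47 ± 0.34 and Uqcr11 0.19 ± 0.15, whereas Uqcrq had -0.077 ± 0.15. In complex IV Cox7a1 had 0.44 ± 0.39 and Cox4i1 -0.22 ± 0.16. In complex V Atp5j, coupling factor 6 of the stalk, had 0.48 ± 0.37, Atp5g3 0.37 ± 0.20, Atp5s -0.35 ± 0.63 and Atp5j2 -0.21 ± 0.12.

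Where 2 related genes were both measured, the ratio between them was followed. The log2 ratio of Cox7a1 to Cox7a2 was -5.80 ± 0.66 (SD, n = 5) at 2 months and -5.33 ± 0.33 at 24 months (exact permutation test, two-sided, p = 0.175, adjusted p = 0.743 over the 9 tests). The log2 ratio of Cox7a2 to Cox7a2l was 1.46 ± 0.40 at 2 months and 1.04 ± 0.36 at 12 months. It was 1.37 ± 0.13 at 18 months and 1.51 ± 0.24 at 24 months. Its lowest p was 0.111, at 12 months (exact permutation test, adjusted p = 0.743). For the subunit c genes Atp5g1 and Atp5g3 it was -4.59 ± 0.85 at 2 months and -4.99 ± 0.43 at 24 months (exact permutation test, p = 0.413, adjusted p = 0.743). The smallest p that 5 libraries against 5 allow is 0.00794.

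Age accounted for a median of 15.5% of the variance of a member over the 20 libraries, from 0.121% to 58.4%, against a median of 17.2% over all tested genes. The 4 ages take up 15.8% of the degrees of freedom, which is the average share for genes without a difference between ages. To describe the spread within ages, a score of each library was taken as the first principal component of the deviations from the age means over the 11214 tested genes outside the member list; it held 15.9% of their variance. Over the 20 libraries the deviations of Ndufa1 had a Pearson r of -0.96 with this score, those of Cox7c -0.95, Ndufb3 -0.94, Uqcrfs1 -0.92, Atp5j -0.90 and Ndufa4 -0.85. At the other end stood Cox7a2l (0.83), Ndufa12 (0.82), Ndufa10 (0.78), Uqcrh (0.74) and Ndufv1 (0.74). An r of -0.7 or below was seen in 17 of 74 members (23%) and 7.48% of the other tested genes, and an r of 0.7 or above in 6 members (8.11%) and 4.77%. These figures are descriptions of 20 libraries, with no test. The shares were not compared at a like level, and the median SE at 24 against 2 months was 0.157 for the members and 0.243 over all tested genes.

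Ndufa1 (chrX:37187588-37191238), a small membrane subunit of complex I, had the widest range among members above 100 normalized counts. At 2 months it had 99.75, 605.5, 1028, 366.6 and 227.7, and at 12 months 940.3, 146, 396.4, 547.2 and 132.5. At 18 months it had 542.7, 315.5, 535.2, 988.2 and 470.9, and at 24 months 497.3, 322.8, 293.3, 870.2 and 1440. Every age thus held libraries that differed at least 3-fold, and the log2 fold change of 0.70 at 24 months had an SE of 0.52 (adjusted p = 0.704). Cox7c, a subunit of complex IV, followed the same libraries, from 72.35 in 2-month replicate 1 to 741.6 in 24-month replicate 5. Cox7a2l was highest where Ndufa1 and Cox7c were lowest, with 1071 in 2-month replicate 1, 1131 in 12-month replicate 2 and 1216 in 12-month replicate 5, against 562.6 to 892.5 in the other 17 libraries.

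**Figure D4:**
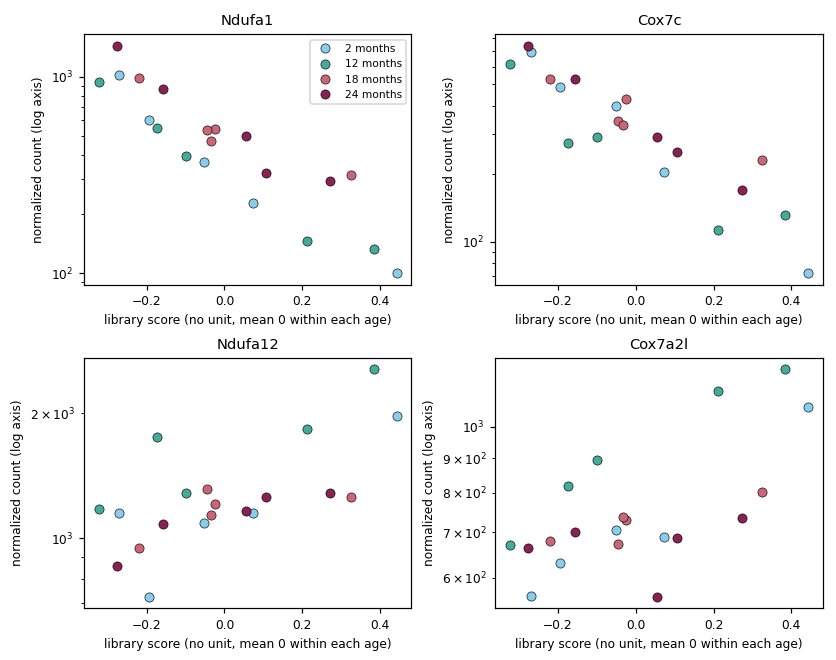
Normalized counts on a log axis of Ndufa1, Cox7c, Ndufa12 and Cox7a2l against the library score, a number without unit whose mean is 0 within each age; each point is 1 of 20 libraries, coloured by age. Ndufa1 and Cox7c fall along the score (r = -0.96 and -0.95 for log2 deviations from the age means) and Ndufa12 and Cox7a2l rise (0.82 and 0.83), with libraries of each age on both sides.

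Several library measures moved with the score. Its Pearson r over the 20 libraries was 0.68 with the share of reads on the 10 most abundant genes (25.6% to 34.9%), -0.53 with the size factor, -0.48 with the number of genes with reads and -0.82 with the share of reads on the members. Across the 74 members, the r with the score went with the GC content of the last 300 bases of the transcript (Spearman rho 0.57, against 0.21 over 10854 tested genes with a transcript): at the low end Uqcrfs1 had 29.3% GC and Ndufa4 34.7%, and at the high end Ndufv1 had 55.7%. The relation was loose, since Sdhc (r = -0.81) and Ndufa12 (0.82) had 48.7% each, Ndufa7 (-0.74) had 51.7% and Uqcrh (0.74) 47.7%. Genes are not independent replicates, and the part of base composition or RNA quality was not tested. The lowest member mean was that of 2-month replicate 1 (-0.28 on the log2 scale), which also had the highest score (0.44) and the highest share on the 10 most abundant genes.

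With the score as a covariate, computed with the age means kept, 1 member was called in 1 of the 8 comparisons, Cox8a in aged against young (0.41, limma adjusted p = 0.0223); this fit was chosen after the data were seen. Pairs of subunits of the same complex and of different complexes were alike in the r of their deviations. The median r was 0.11 within a complex (778 pairs, from -0.91 to 0.94) and 0.12 between complexes (1923 pairs, from -0.90 to 0.97). Among the 3971 other tested genes between 236 and 1897 normalized counts it was 0.0057 (from -0.98 to 0.99). The member pairs were taken over all 74 tested members, of which 58 lie in that range, so the levels were not matched.

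**Figure D5:**
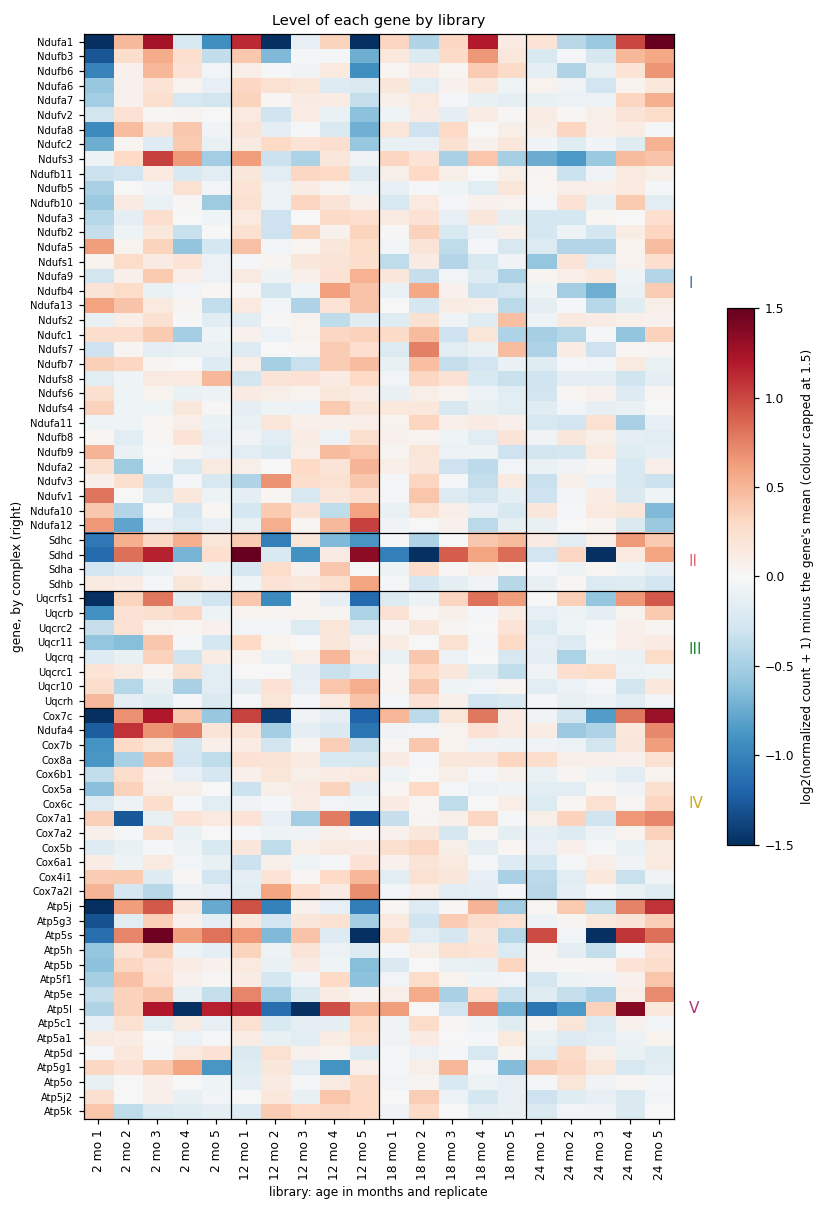
Level of the 74 tested genes (rows, by complex) in 20 libraries (columns, age in months and replicate), as log2(normalized count + 1) minus the mean of the gene; red is higher and blue lower, capped at 1.5. The top rows of each complex are low in 2-month replicate 1, 12-month replicate 2 and 12-month replicate 5 and high in 2-month replicate 3 and 24-month replicate 5, and no block of columns follows age.

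The genes outside the list whose log2 values over the 20 libraries were most like the mean of the members were Rpl36al (r = 0.92), Pole4 (0.91) and Myl12a (0.90). Rpl36al encodes a ribosomal protein, Pole4 a DNA polymerase subunit and Myl12a a myosin light chain.

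The other parts of the mitochondrial program were mostly without calls as well. Among assembly factors of the chain 47 of 50 were tested and 0 were called in any of the 8 comparisons, with a median log2 fold change of 0.0017 at 24 months. Among mitochondrial ribosomal proteins 74 of 78 were tested and 0 were called (median 0.038 at 24 months). The same held for 13 regulators of mitochondrial biogenesis (median -0.015 at 24 months) and 16 enzymes of the tricarboxylic acid cycle (median -0.0054 at 24 months). At 12 against 2 months the medians of these regulators and enzymes were -0.26 and -0.083. For 24 against 12 months they were 0.17 and 0.17. Since between 0% and 1.01% of all tested genes were called in a comparison, lists of this size would hold 0 or 1 call in proportion, and these counts do not set the lists apart. Subunits and partners outside the naming rule were not called either: Cyc1, cytochrome c1 of complex III, had a log2 fold change of -0.023 ± 0.14 (SE) at 24 months, Cycs, cytochrome c, -0.20 ± 0.29, and Ndufab1, the acyl carrier protein of complex I, 0.52 ± 0.31. The 13 subunits encoded in the mitochondrion were not analysed here.

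The exception was Slc25a4 (chr8:46207168-46211062), the ADP/ATP carrier that exports the ATP made by complex V, from a list of 11 genes that go with mitochondrial mass, of which 10 were tested. It had 1392, 1650, 2042, 1719 and 1793 normalized counts at 2 months. At 12 months it had 2881, 3128, 2754, 2741 and 2115, at 18 months 2393, 2787, 3324, 2620 and 3051, and at 24 months 2288, 2399, 2618, 2050 and 2936. All 15 aged libraries lay above the 5 young ones, the closest being 2050 against 2042. Slc25a4 rose by a log2 fold change of 0.66 ± 0.12 (SE) at 12 months (limma adjusted p = 0.006), 0.72 ± 0.12 at 18 months (adjusted p = 0.00161) and 0.52 ± 0.12 at 24 months (adjusted p = 0.0386). In the trend over age it was not called (0.56 ± 0.15, limma adjusted p = 0.0817). Without 1 library the call at 24 months was lost in 9 of 20 fits (4 young libraries, 4 of 24 months and 1 of 12 months), with adjusted p from 0.021 to 0.121, and it was lost without the filter on low values (0.0602), with only the groups compared (0.0825) and at a threshold of 1.5-fold. The calls at 12 and 18 months held in all 20. Slc25a5, another form of the carrier, had a log2 fold change of 0.059 ± 0.31 at 24 months. Of 7 targets of HIF-1 only Egln3, an oxygen-sensing prolyl hydroxylase, was called, at 24 months (0.47 ± 0.098, adjusted p = 0.0125), for aged against young (0.35 ± 0.088, adjusted p = 0.0409) and in the trend. Its call at 24 months was lost without 24-month replicate 3 (adjusted p = 0.052), with only the groups compared (0.0704) and at a threshold of 1.5-fold. The median log2 fold change of the 7 targets was 0.39 for 24 against 2 months. There 3 of 7 had an unadjusted limma p below 0.05 (9.97% of all genes). For 24 against 12 months the median reached 0.48, with 5 of 7 below 0.05 (14.7% of all genes). Against the young libraries, the 12-month median was -0.037 (3 of 7) and the 18-month median 0.19 (1 of 7). The targets were not tested as a set.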

How the data were processed

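Bulk 3′ RNA sequencing of scraped corneal epithelium was analysed in 20 libraries, 5 mice at each of 4 ages. Per the authors' methods, cutadapt and FastQC served for trimming and quality checks, STAR for alignment to GRCm38, HTSeq for counting and the relative log expression of DESeq2 for normalization. The values that the authors deposited are log2 of the normalized count plus 1. Every value gave back a whole read count (100% within 0.1 reads). Columns holding the authors' own fold changes and p-values were not used. Per-library depth limits low genes, and intervals cover the spread between mice.

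The log2 values were fitted by age with limma 3.58.1 (R 4.3.3; empirical Bayes with a variance trend), keeping genes whose normalized counts averaged 10 or more, in 1 fit of the 4 ages; aged against young was a fit of 2 groups, and the trend, over 22 months, a fit on age. P-values were adjusted over all tested genes. Ratios used exact permutation tests (scipy 1.17.1); Python 3.11.15, numpy 2.4.6, pandas 2.3.3 and matplotlib 3.10.9 did the rest. On simulated data of the 24-month comparison with 11288 genes, genes given a 1.5-fold change were called in 25.4% of cases, a 2-fold change in 58.2% and a 3-fold change in 68.2%, and unchanged genes made up 1.94% of calls. The changed genes were drawn at random from all tested genes, whose median SE was 0.243 against 0.157 for the members. These rates are therefore not rates for the members.

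The members and lists were chosen with earlier results of these data known. Named are all called members and, per complex, the 2 highest and the 2 largest rises and falls at 24 months. Members below the filter, paralog pairs and chain subunits outside the rule are named too, as are called genes of the other pathway lists. So are the 3 genes most like the member mean. Cox8a, Sdhb, Ndufa12, Ndufa4, Ndufa1, Cox7c, Ndufb3 and other genes on the library score were chosen after their values were seen. Slc25a5, the called cell type markers and the sequences were chosen in the same way. Members matched RefSeq by NCBI gene identifier (83 of 83). Transcript ends came from the longest principal transcript in GENCODE M21 (GRCm38). Alternatives were quantile normalization, other filters, thresholds and pseudocounts, a replicate block, a fit of the compared groups alone, voom on recovered reads and leaving out each library.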

Additional observations from a re-analysis of the deposited data

Results flagged for a closer look

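Among 68 groups of 5 libraries examined for a library apart from the rest (10 genes, the member and complex means and the share of reads on the members), 1 was found, where chance gives about 1 in 20 groups. Cox7a2l had 1071 normalized counts in 2-month replicate 1, against 564.4 to 704.6 in the other 4 young libraries; the gap was 0.723 of the whole range, above the critical value of 0.71. The same library had the highest score and the lowest member mean.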

How the results depend on the processing

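The count of 0 called members was the same in all 78 planned fits that kept every library, over the 8 comparisons. Those at 1.5-fold and without a fold threshold reused the adjusted p of the main fit. At 1.5-fold the count could only be 0, so these are not separate checks. With single libraries left out, between 0 and 2 members were called at 12 months (2 without 2-month replicate 1, Ndufa12 and Ndufa4) and between 0 and 1 at 18 months, at 24 months, for aged against young and in the trend (1 in each without 2-month replicate 3, Cox8a), and 0 in the other 3 comparisons. With the library score as a covariate, an added fit, 2 members were called at 12 months, 0 at 18 months, 2 at 24 months, 7 for 24 against 12 months, 2 for 18 against 12 months, 0 for 24 against 18 months, 1 for aged against young and 2 in the trend; by construction this score is 0 on average in each age, so it takes away spread within ages and its p-values are too small. With the age means kept, the counts were 0 in 7 comparisons and 1 for aged against young. The replicate numbers of the labels did not pair the libraries: over 30 same-numbered pairs the r of the deviations ran from -0.30 to 0.16, above 0.1 in 3. With the replicate block 0 members were called. The median log2 fold change of the members stayed near 0, between -0.112 and 0.107, when single libraries were left out. Its sign changed at 18 months (-0.011 to 0.045), at 24 months (-0.049 to 0.032), for aged against young (-0.021 to 0.048) and in the trend (-0.055 to 0.028). The sign held at 12 months (0.024 to 0.107) and for 24 against 12 months (-0.112 to -0.046). It also held for 18 against 12 months (-0.061 to -0.0019) and for 24 against 18 months (-0.106 to -0.010). The paralog ratios were called in none: the log2 ratio of Cox7a1 to Cox7a2 at 12 months, -0.0020, changed sign with quantile normalization (0.20), pseudocount 10 (0.014) and voom (0.0031), and over single libraries left out it ran from -0.27 to 0.27; with 1 library left out the sign also changed for that ratio at 18 months (-0.058 to 0.33) and for Cox7a2 to Cox7a2l at 18 months (-0.22 to 0.052) and 24 months (-0.081 to 0.19). Over the alternatives that kept every library, the added fits with the score among them, limma adjusted p was taken at 24 months. It ran from 0.0448 to 0.388 for Cox8a and from 0.00493 to 0.0825 for Slc25a4. The 0.0448 of Cox8a came from the fit with the library score as a covariate, whose p-values are too small. With voom the adjusted p of Cox8a was 0.225 and with quantile normalization 0.232. The cause of these differences was not tested. At 24 months the intervals of 9 members reached beyond 2-fold, of which Sdhd, Atp5l, Atp5s, Cox7a1 and Ndufs3 had a mean below 100 normalized counts and Ndufa1, Atp5j, Uqcrfs1 and Cox7c had means from 356 to 542.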
